A study of Mus musculus with 10 samples.

Results

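The genes described here encode the subunits, regulators and dedicated assembly factors of the proteasome. Members were the protein-coding genes of the count table whose Ensembl identifier maps, in the mouse GENCODE annotation, to a symbol of the form Psma to Psmg followed by a number. The rule found 50 of the 55416 genes. Of these, 49 have a known proteasome role, and Psmc3ip, a meiotic recombination factor, matches by name only. After the low-count filter 47 were tested, and each count of members below refers to those 47.

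RNA that came down with antibodies to Musashi1 and Musashi2 was sequenced from mouse pituitary, to find which RNAs these RNA-binding proteins hold. The Musashi IP group was recovered with both antibodies pooled, and the IgG group with control rabbit IgG from the other part of the same lysate. Each of the 5 lysates was made from 6 pooled pituitaries of sighted FVB mice (FVB.129P2-Pde6b+Tyrc-ch/Ant) aged 8 to 10 weeks. Lysates 2, 5 and 6 were female and lysates 3 and 7 were male, so the female libraries numbered 3 per group and the male libraries 2. The Pde6b and Tyr alleles in the strain name are thus shared by both groups, and the labels call the mice control and name no treatment. A further male pair that the protocol implies was not analysed here. An IgG library shows RNA held without the Musashi antibodies and is not a measure of the total RNA in the lysate, so each fold change below is recovery with the Musashi antibodies over recovery with IgG.

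The proteasome degrades proteins that carry ubiquitin chains. Its barrel-shaped 20S core is built of alpha-type (Psma) and beta-type (Psmb) subunits, and some of the beta subunits cut peptide bonds. A 19S cap opens the barrel with a ring of ATPases (Psmc), and its other subunits (Psmd) form the rest of the base and a lid that receive the substrate and remove its ubiquitin. Activators (Psme) and the inhibitor PI31 (Psmf1) bind the core in place of the cap or beside it, and Psmg proteins and a few Psmd proteins are chaperones that leave the finished particle. Musashi proteins bind short UAG-containing motifs, mainly in 3′ UTRs (untranslated regions), and control the translation of the mRNAs they bind. In the pituitary, secretory cells make peptide hormones in bulk, and the proteasome clears the proteins that fail quality control.

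All 5 members that were higher in the Musashi IP hold at least 1 Musashi motif in their longest annotated 3′ UTR, and 1 site of each is shown here so that the letters can be read beside the values, an AUUAGU where the gene has one. The motif searched was a G or an A, then 1 to 3 letters U, then AGU, on the transcript strand only. Matches that overlap were each counted. Sequences are in RNA letters from GENCODE M21 transcripts with GRCm38 coordinates, and capitals mark the motif.
Psmf1 (chr2:151718409-151718434, minus strand, site 1 of 7): ccacggagaaAUUAGUgugucucaau
Psmd7 (chr8:107580851-107580876, minus strand, its 1 site): agcuuuuuuaAUUAGUaaauuaaaau
Psme3 (chr11:101322219-101322244, plus strand, site 2 of 5): ccuuuugaugAUUAGUugguuaaaag
Psmd8 (chr7:29175307-29175331, minus strand, its 1 site): gcacugugugAUAGUcgagggggac
Psmd11 (chr11:80472611-80472635, plus strand, its 1 site): uccuuuuuaaAUAGUgaacauuagg
Motif matches are common: 73.3% of the 13666 tested protein-coding genes with a 3′ UTR of 100 nt or more hold at least 1. For contrast, Psmc6, an ATPase subunit whose log2 fold change was -0.10, holds 4 matches, among them this one.
Psmc6 (chr14:45349111-45349136, plus strand, site 3 of 4): guccuuuuggAUUAGUaaguauauga
The match in Psmc6 has the same AUUAGU letters as those of Psmf1, Psmd7 and Psme3, and a match describes the letters in the annotated UTR and is not evidence of binding there.

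The libraries held between 6.67 and 13.02 M counts, so 1 count in the shallowest equals 0.150 CPM (counts per 1 M counts) before scaling. The CPM values given here were scaled further between libraries with TMM factors. Of 7 pituitary hormone genes listed, 6 were tested and had a median of 371 CPM per kb of exon in IgG, while Lhb was listed at 0 in every library. Lysate 2 stood apart: both of its libraries were above the other 4 of their group for many members, as given with the results. Lysate 6 had the largest log2 ratio of each of the 5 members that were higher, from 0.98 for Psmd11 to 1.92 for Psmf1. Its median log2 ratio over protein-coding genes was 0.28, against 0.05 to 0.11 in the other lysates. Without lysate 6 the same 5 members were still called higher. Red cell markers fell in the Musashi IP in 3 of 4 tested genes, beside 4.01% of protein-coding genes. Their summed level was 271 to 688 CPM in the Musashi IP and 461 to 1248 CPM in IgG. Endothelial markers (0 of 8 past the threshold) summed to 75.2 to 168 CPM in the Musashi IP and 84.9 to 386 CPM in IgG, with the IgG library of lysate 2 the highest. Of 9 immune cell markers tested, 2 fell, and their sums were 50.7 to 216 CPM in the Musashi IP and 64.4 to 218 CPM in IgG. The part of these cells in the results on proteasome genes was not tested.

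For most proteasome mRNAs no difference between the Musashi IP and IgG passed the test, and a small set led by the inhibitor Psmf1 was enriched. Summed over all members they took 1802 ± 123 CPM in the Musashi IP and 1757 ± 234 CPM in IgG (mean ± SD, n = 5 lysates). With TMM scaling this sum was higher in the Musashi IP in 2 of 5 pairs. As a share of unscaled library counts it was lower in the Musashi IP of every pair, at 0.170% against 0.186% on average. With edgeR's quasi-likelihood test, the lysate as a block and Benjamini-Hochberg adjustment over all 20550 genes tested, 5 members (10.6%) were higher in the Musashi IP and 2 (4.26%) were lower. The background was 18.5% higher and 8.4% lower over all tested genes, and 25.7% higher and 4.01% lower over the 14202 protein-coding ones. The share of members that were higher was thus below both backgrounds, and the share lower was close to that of protein-coding genes. The median log2 fold change was -0.10 over the members, against 0.09 over protein-coding genes. In each lysate the members' median log2 ratio lay below that of protein-coding genes. The members' medians were -0.18, 0.03, -0.15, -0.06 and -0.12 in lysates 2, 3, 5, 6 and 7. Those of protein-coding genes were 0.05, 0.08, 0.09, 0.28 and 0.11. The 5 that rose were Psmf1, Psmd7, Psme3, Psmd8 and Psmd11, and the 2 that fell were Psmb7 and Psmc3.

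**Figure D1:**
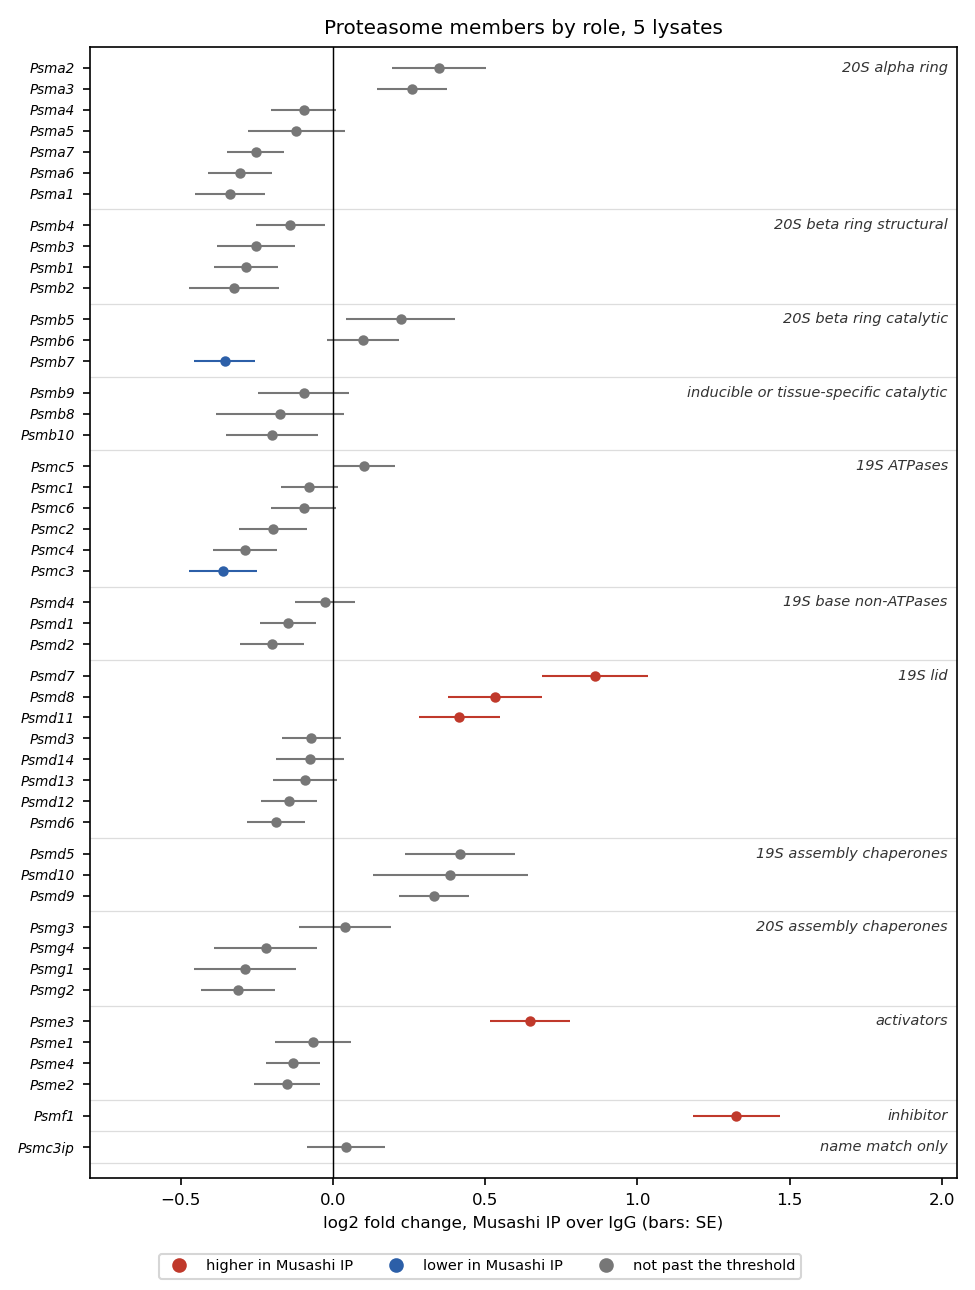
Log2 fold change of each tested member, Musashi IP over IgG (x axis; bars are SE from the edgeR fit over 5 lysates), with the members grouped by role down the page. The inhibitor Psmf1 stands farthest to the right at 1.33, and the alpha and beta rings lie mostly left of 0. Of the lid subunits 3 of 8 are higher, beside 25.7% of protein-coding genes.

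The number called lower depends on how libraries are scaled. With library totals in place of TMM factors, 4 members were higher and 15 lower, where 21.5% of protein-coding genes were higher and 14.5% lower. The median log2 fold change was then -0.27 over the members and -0.24 over all tested genes, in place of -0.07 over all tested genes with TMM. Leaving out lysate 2 gave 8 members higher and 0 lower with a median of -0.0045, beside 31.5% and 1.7% of protein-coding genes. Leaving out lysate 3 gave 3 higher and 5 lower with a median of -0.23, beside 20.5% and 6.02%. Without lysate 5 or lysate 7 the counts were 3 higher and 0 lower, beside 11.4% and 0.147% of protein-coding genes without lysate 5 and 15.6% and 0.937% without lysate 7. Without lysate 6 they were 5 higher and 5 lower, beside 24.7% and 4.64%.

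**Figure D2:**
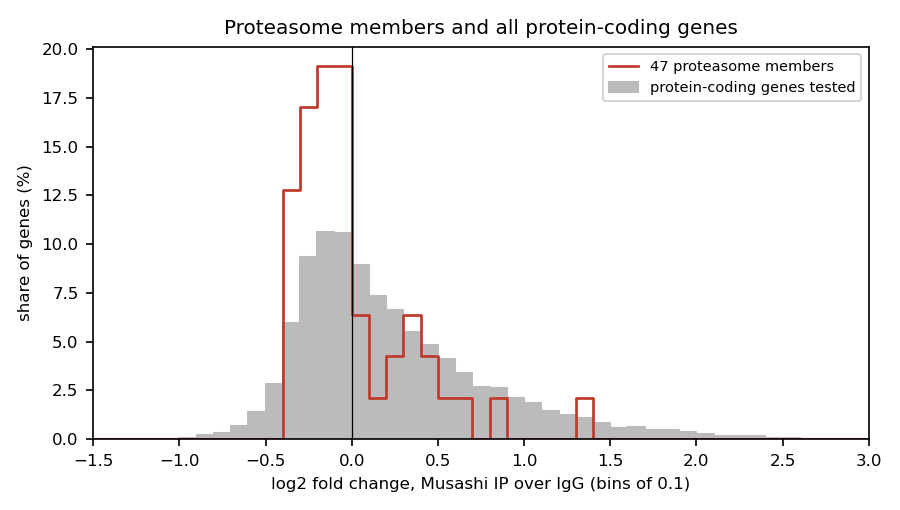
Distribution of log2 fold changes, Musashi IP over IgG (x axis), of the 47 tested members and of all 14202 tested protein-coding genes, as percent of genes per bin (y axis); protein-coding genes beyond the ends of the axis are not drawn. The members gather around their median of -0.10, and few reach the right side, where 25.7% of protein-coding genes were called higher.

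Psmf1, the PI31 protein first described as an inhibitor of the 20S core, was the member most enriched with the Musashi antibodies. It had 89.1, 71.2, 99.5, 162 and 92.4 CPM in the Musashi IP of lysates 2, 3, 5, 6 and 7, against 38.0, 36.7, 38.6, 42.6 and 41.8 CPM in IgG. The groups did not overlap: the lowest Musashi IP library stood well above the highest IgG library, and lysate 6 was the highest of both groups. The means were 103 ± 34.6 CPM in the Musashi IP and 39.5 ± 2.54 CPM in IgG (SD, n = 5). The log2 fold change was 1.33 ± 0.14 (SE), or 2.51-fold, with an edgeR Benjamini-Hochberg adjusted p of 0.00336, and Psmf1 was higher in 5 of 5 pairs. It ranked 717 among the 14202 protein-coding genes by fold change, and its adjusted p stayed under 0.05 in 14 of 14 alternative analyses.

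Among the activators, which open the core without the 19S cap, Psme3 rose and the others did not pass the test. Psme3 encodes PA28γ, the nuclear member of the PA28 family. It had 58.9, 40.6, 55.7, 68.5 and 44.0 CPM in the Musashi IP of lysates 2, 3, 5, 6 and 7, against 43.8, 28.4, 39.7, 29.9 and 28.7 CPM in IgG. Psme3 was higher in 5 of 5 pairs, although the ranges overlapped, because lysate 2 in IgG exceeded lysate 3 in the Musashi IP. Its log2 fold change was 0.65 ± 0.13 (edgeR adjusted p 0.00953), and this call was kept in 14 of 14 alternatives. The interferon-inducible partners Psme1 and Psme2 (PA28α and PA28β) had log2 fold changes of -0.07 ± 0.13 and -0.15 ± 0.11, and Psme4, the large single-chain activator PA200, had -0.13 ± 0.09. Psme1 lay nearest to 0, with 21.2, 29.3, 14.4, 14.5 and 21.98 CPM in the Musashi IP of lysates 2, 3, 5, 6 and 7 and 27.5, 23.5, 16.5, 14.6 and 23.1 CPM in IgG. Those ranges overlapped almost entirely, and the male lysate 3 was the only pair with more Psme1 in the Musashi IP. Psme2b, a close copy of Psme2, had 0 to 10 counts per library and was not tested.

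**Figure D3:**
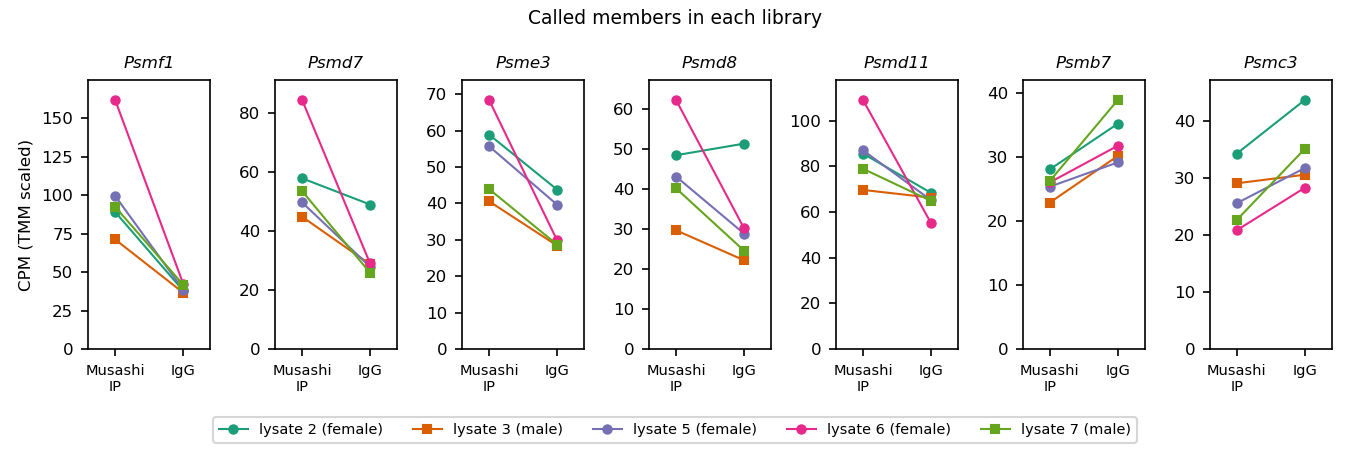
CPM of the 7 members past the threshold (y axis, starting at 0) in the Musashi IP and in IgG, with a line joining the libraries of each lysate. Psmf1 and Psmd11 are higher in the Musashi IP of every pair with no overlap between groups, Psmb7 is lower in every pair with no overlap, and the IgG library of lysate 2 is high for Psmd7 and Psmd8.

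The lid held 3 of the 5 members that rose. Of its 8 members tested, 37.5% rose, beside 25.7% of protein-coding genes. Sem1, a lid subunit outside the naming rule, fell, as given below. The lid docks on the base of the 19S cap and carries Psmd14 (Rpn11), the enzyme that cuts ubiquitin chains from the substrate. Psmd7 (Rpn8), the structural partner of Psmd14, had 57.9, 44.8, 49.7, 84.4 and 53.5 CPM in the Musashi IP of lysates 2, 3, 5, 6 and 7, against 49.0, 28.7, 27.9, 29.0 and 25.8 CPM in IgG. Every pair was higher in the Musashi IP; the IgG library of lysate 2 was the only one that reached into the Musashi IP range. The log2 fold change of Psmd7 was 0.86 ± 0.17 (1.82-fold, edgeR adjusted p 0.00958), and the call was kept in 14 of 14 alternatives.

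Psmd8 (Rpn12), in yeast one of the last subunits to join the lid, and Psmd11 (Rpn6), which clamps the cap to the core, rose less. Psmd8 had 48.5, 29.7, 43.2, 62.4 and 40.3 CPM in the Musashi IP of lysates 2, 3, 5, 6 and 7, against 51.4, 22.2, 28.9, 30.3 and 24.6 CPM in IgG. It was higher in 4 of 5 pairs, with lysate 2 the exception, and the groups overlapped. Its log2 fold change was 0.53 ± 0.16 (edgeR adjusted p 0.0357). Psmd8 missed the threshold without lysate 3, 5 or 7 (edgeR adjusted p 0.0746, 0.116 and 0.125), without the lysate block (0.201) and with a correction for transcript length and GC content (0.0640).

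Psmd11 had 85.6, 69.7, 87.1, 109 and 79.0 CPM in the Musashi IP of lysates 2, 3, 5, 6 and 7, against 68.4, 66.3, 65.2, 55.2 and 64.9 CPM in IgG. No Musashi IP library fell into the IgG range, though lysate 3 came close to it. The log2 fold change was 0.41 ± 0.13 (edgeR adjusted p 0.0487), just inside the threshold. Only 5 of 14 alternatives kept this call, and Psmd11 missed the threshold without lysate 3, 5 or 7 (0.0630, 0.140 and 0.121), without the lysate block (0.0604) and, at up to 0.0909, with either other scaling, DESeq2, a 2 CPM filter or protein-coding genes only.

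The other 5 lid members, Psmd3, Psmd6, Psmd12, Psmd13 and Psmd14 itself, had log2 fold changes between -0.19 and -0.07, and none passed the test. Psmd3 (Rpn3) lay nearest to 0, with 63.7, 50.9, 47.1, 44.4 and 44.6 CPM in the Musashi IP of lysates 2, 3, 5, 6 and 7 and 60.1, 50.0, 52.8, 53.8 and 45.4 CPM in IgG. The groups overlapped fully, and the Musashi IP was higher in 2 of 5 pairs. So partners in the same subcomplex differed: Psmd14 had a log2 fold change of -0.07 ± 0.11, against 0.86 ± 0.17 for its partner Psmd7. That difference between genes was not tested.

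The ATPase ring of the base, which unfolds substrates and threads them into the core, had 1 member that fell and 5 that did not pass. Psmc3 (Rpt5) had 34.3, 29.1, 25.6, 20.9 and 22.7 CPM in the Musashi IP of lysates 2, 3, 5, 6 and 7, against 43.7, 30.6, 31.8, 28.3 and 35.1 CPM in IgG. It was lower in the Musashi IP of every pair, and the groups overlapped through lysates 2 and 3 of the Musashi IP. The log2 fold change was -0.36 ± 0.11 (edgeR adjusted p 0.0409), and the call was lost without lysate 2, 5 or 7 (0.106, 0.121 and 0.113), without the lysate block (0.2002), with no low-count filter (0.0887) and with DESeq2 (0.0542). Psmc3 overlaps Slc39a13 on the opposite strand over 8.25% of its exon bases, and Slc39a13 itself rose by 0.84. The strand setting of the counting is not given in the sources used here, so reads in that overlap cannot be assigned with certainty.

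The remaining ATPase members ranged from -0.29 (Psmc4, Rpt3) to 0.10 (Psmc5, Rpt6). Psmc1 (Rpt2), whose tail in yeast helps to open the gate of the core, was nearest to 0 with 44.0, 33.1, 31.3, 30.7 and 35.8 CPM in the Musashi IP of lysates 2, 3, 5, 6 and 7 and 45.8, 31.7, 34.2, 33.3 and 39.6 CPM in IgG. Its groups overlapped, and the Musashi IP exceeded IgG in lysate 3 alone. The base scaffolds Psmd1 (Rpn2) and Psmd2 (Rpn1) had log2 fold changes of -0.15 ± 0.09 and -0.20 ± 0.11. Psmd4 (Rpn10), a ubiquitin receptor, had -0.03 ± 0.10, with 53.9, 42.8, 39.5, 41.5 and 41.1 CPM in the Musashi IP and 52.4, 42.3, 44.6, 47.1 and 36.5 CPM in IgG. These values interleave, with lysate 2 the highest of each group.

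In the 20S core, 0 of 14 constitutive members tested rose and 1 fell, beside 25.7% and 4.01% of protein-coding genes. The median over these 14 was -0.20 on the log2 scale. The alpha ring forms the gate of the barrel. Psma2 and Psma3 had positive values there (0.35 ± 0.15 and 0.26 ± 0.11), and the other 5 tested alpha subunits ranged from -0.34 (Psma1) to -0.10 (Psma4), with no call in either direction. Psma4 had 25.7, 21.3, 22.6, 20.3 and 21.7 CPM in the Musashi IP of lysates 2, 3, 5, 6 and 7 and 33.3, 21.6, 23.7, 20.2 and 21.9 CPM in IgG. Apart from lysate 2, the paired values were nearly the same. Psma2 passed the threshold as higher when lysate 2 was left out (log2 fold change 0.53, edgeR adjusted p 0.0245), and Psma2 and Psma3 did so with the length and GC correction (0.0310 and 0.0359). Others passed as lower: Psma1, Psma6 and Psma7 without lysate 6 (edgeR adjusted p 0.0177, 0.0339 and 0.0320), Psma1 without lysate 3 (0.0333), and all of these with library totals, a 2 CPM filter or protein-coding genes only. Psma8, an alpha subunit of the testis, had 0 to 6 counts per library and was not tested.

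The structural beta subunits Psmb1, Psmb2, Psmb3 and Psmb4 all had negative values, between -0.32 and -0.14, and none passed the test. Psmb4 lay nearest to 0, with 50.5, 31.0, 31.0, 35.9 and 30.3 CPM in the Musashi IP of lysates 2, 3, 5, 6 and 7 and 62.8, 31.4, 38.5, 31.3 and 35.9 CPM in IgG. Lysate 2 was far above the others in both groups, and only lysate 6 was higher in the Musashi IP. Psmb1 passed as lower in some alternatives, among them leaving out lysate 3 (edgeR adjusted p 0.0266).

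The catalytic beta subunits give the core its cutting activities. Psmb7, the trypsin-like subunit, had 28.1, 22.9, 25.4, 26.1 and 26.3 CPM in the Musashi IP of lysates 2, 3, 5, 6 and 7, against 35.2, 30.2, 29.2, 31.8 and 38.9 CPM in IgG. It was lower in the Musashi IP of every pair and the groups did not overlap. The log2 fold change was -0.36 ± 0.10 (edgeR adjusted p 0.0321), and the call was lost without lysate 2, 5 or 7 (0.0852, 0.0858 and 0.0890), without the lysate block (0.0919), with no low-count filter (0.0880) and with the length and GC correction (0.0650). Psmb7 overlaps Nek6 on the opposite strand over 11.8% of its exon bases, and Nek6 rose by 0.50.

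Psmb6, the caspase-like subunit, had 39.7, 17.5, 19.3, 23.9 and 20.9 CPM in the Musashi IP of lysates 2, 3, 5, 6 and 7 and 33.4, 19.4, 21.1, 18.4 and 19.3 CPM in IgG. Psmb5, the chymotrypsin-like subunit that proteasome inhibitor drugs target, had 8.85, 4.13, 4.54, 4.31 and 3.36 CPM in the Musashi IP and 9.84, 2.56, 3.63, 3.13 and 3.41 CPM in IgG. Both overlapped between groups, with lysate 2 highest, and their log2 fold changes were 0.10 ± 0.12 for Psmb6 and 0.22 ± 0.18 for Psmb5. The level of Psmb5 is uncertain, because the near-identical pseudogene Gm3375 has counts equal to 57.9% of those of Psmb5. For Psma4 the pseudogene Gm6542 has 23.9%, and 12 of the 50 members have at least 1 pseudogene with 95% identity or more over 100 nt.

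The immunoproteasome subunits replace the constitutive catalytic ones in immune cells and under interferon. In IgG, Psmb8, Psmb9 and Psmb10 had 2.04 ± 0.99, 2.86 ± 1.09 and 7.04 ± 1.79 CPM per kb of exon (mean ± SD). The constitutive Psmb5, Psmb6 and Psmb7 had 5.02 ± 3.34, 11.9 ± 3.35 and 9.67 ± 1.17 CPM per kb. By these means Psmb8 and Psmb9 were below all 3 constitutive subunits, and Psmb10 was above Psmb5. The differences from Psmb5 lay within its SD. In IgG of lysate 3, Psmb9 (4.05 CPM per kb) exceeded Psmb5 (2.85), and in the other lysates it was lower. Psmb8 (LMP7) had 6.22, 12.6, 2.92, 2.64 and 7.33 CPM in the Musashi IP of lysates 2, 3, 5, 6 and 7 and 9.95, 8.49, 2.72, 3.83 and 9.44 CPM in IgG. Psmb9 (LMP2) had 9.09, 15.8, 6.37, 5.48 and 12.2 CPM in the Musashi IP and 10.96, 14.8, 9.21, 4.41 and 12.8 CPM in IgG. In both genes lysates 5 and 6 were the lowest of each group, and the antibody groups overlapped. Psmb10 (MECL-1) had 11.1, 15.8, 8.32, 7.25 and 10.2 CPM in the Musashi IP and 12.6, 14.3, 7.78, 10.1 and 15.2 CPM in IgG, again overlapping. Their log2 fold changes, -0.17 ± 0.21, -0.10 ± 0.15 and -0.20 ± 0.15, did not pass the test. Psmb11, the catalytic subunit of the thymus, had 0 or 1 count per library and was not tested.

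**Figure D4:**
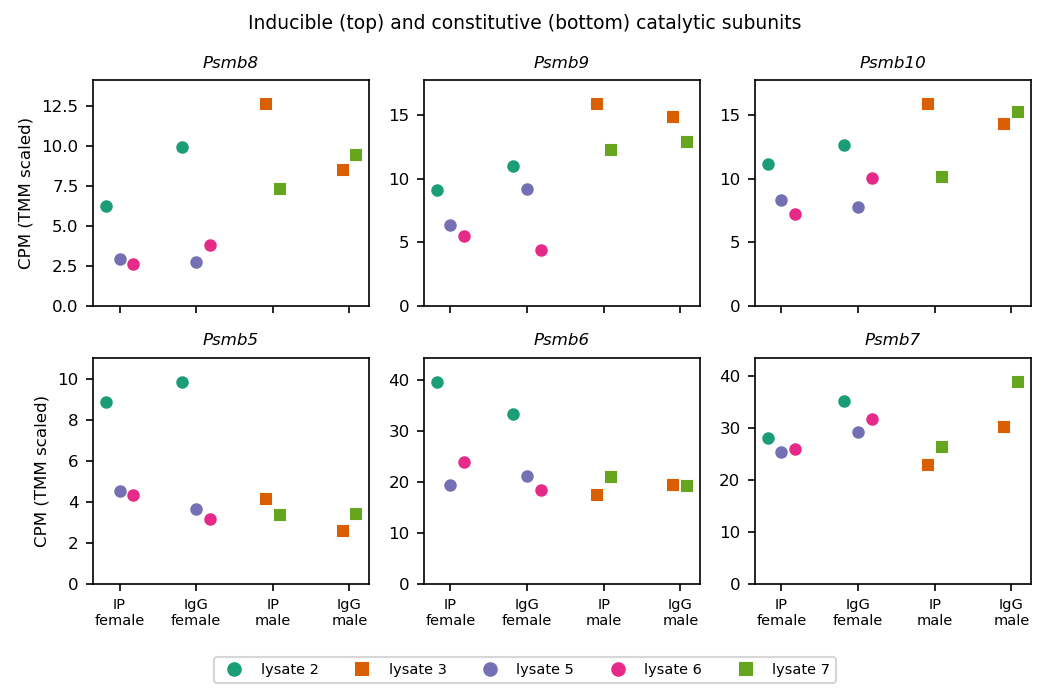
CPM of the constitutive catalytic subunits Psmb5, Psmb6 and Psmb7 and the inducible Psmb8, Psmb9 and Psmb10 (y axis, starting at 0), by antibody and sex; each point is 1 library. In Psmb8 and Psmb9 the female libraries lie mostly below the male ones, with lysate 2 the highest of the female libraries.

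None of the assembly chaperones passed the test. The 19S chaperones, which hold ATPase pairs until the base is complete, had positive values: 0.42 ± 0.18 for Psmd5 (S5b), 0.39 ± 0.25 for Psmd10 (gankyrin) and 0.33 ± 0.12 for Psmd9 (p27). The smallest edgeR adjusted p of these was 0.0620, for Psmd9. Without lysate 2, Psmd5 and Psmd9 did pass (adjusted p 0.0281 and 0.0447). Psmd9 had 32.6, 34.2, 28.3, 38.1 and 31.9 CPM in the Musashi IP of lysates 2, 3, 5, 6 and 7 and 28.2, 28.8, 26.8, 27.7 and 20.1 CPM in IgG. It was higher in the Musashi IP of every pair, and the ranges touched only through lysate 5 in the Musashi IP. The summed level of the 19S chaperones was 96.9 ± 18.3 CPM in the Musashi IP and 73.4 ± 5.40 CPM in IgG.

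The 20S chaperones Psmg1 to Psmg4 (PAC1 to PAC4), which place the alpha subunits in their ring, had a median log2 fold change of -0.26 with no call. Psmg3 lay nearest to 0 at 0.04 ± 0.15, with 7.53, 5.10, 7.02, 4.90 and 5.09 CPM in the Musashi IP of lysates 2, 3, 5, 6 and 7 and 6.37, 6.07, 5.97, 5.34 and 4.85 CPM in IgG. Its values overlapped completely. The name match Psmc3ip had a log2 fold change of 0.04 ± 0.13, and leaving it out changed the members' median to -0.11.

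Levels per kb of exon in IgG ran from 1.98 ± 0.21 CPM per kb for Psmg3 to 27.0 ± 4.07 CPM per kb for Psme4. The length used is that of all annotated exons of a gene merged, and another length could change the order. For Psmd9 it is 7248 nt, while the longest transcript has 2634 nt. Psme4 and Psmb2 (26.6 ± 4.24) came first and did not differ beyond their SD. Psmd2, Psma3 and Psmb4 followed at 20.98 ± 5.99, 20.9 ± 2.53 and 20.5 ± 6.73 CPM per kb, likewise within each other's SD. At the low end Psmg3, Psmb8, Psmb9, Psmd10 and Psmd9 were under 4 CPM per kb. Psmf1, at 6.14 ± 0.39 CPM per kb in IgG, was in the lower part of this order. Across 39 members with a 3′ UTR of at least 100 nt, the Spearman correlation of log2 fold change with mean IgG CPM was 0.06, as a description over genes that share libraries.

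Genes outside the naming rule that act with the proteasome were counted in the same way. Of 24 such genes listed, 23 had a row and were tested: 8 (34.8%, beside 25.7% of protein-coding genes) rose, 1 (4.35%) fell and 14 did not pass. Their log2 fold changes had a median of 0.14. Most of the 23 had a longest annotated 3′ UTR of 1200 nt or more. Among protein-coding genes, 33.6% were called higher at 1200 to under 2400 nt and 44.9% at 2400 nt or more. The part of length in the calls of this list was not tested. Nfe2l1 (NRF1), the transcription factor that induces proteasome genes when degradation falls behind, had 282, 224, 309, 570 and 304 CPM in the Musashi IP of lysates 2, 3, 5, 6 and 7, against 151, 111, 91.8, 96.4 and 96.9 CPM in IgG. The groups did not overlap, and its log2 fold change was 1.57 ± 0.22 (edgeR adjusted p 0.00382). Ddi2, the protease that cuts NRF1 into its active form, also rose (0.61 ± 0.12, adjusted p 0.00824). Ngly1, which strips sugars from NRF1, had 0.01 ± 0.09, and Nfe2l2 had -0.24 ± 0.09; neither passed.

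Zfand2a, an arsenite-inducible zinc finger protein that binds the 19S cap, had 52.1, 35.8, 65.0, 136 and 53.1 CPM in the Musashi IP of lysates 2, 3, 5, 6 and 7, against 27.1, 24.1, 24.4, 25.2 and 20.3 CPM in IgG. Its groups did not overlap either, and the log2 fold change was 1.35 ± 0.23 (edgeR adjusted p 0.00583). The shuttle proteins that carry ubiquitinated substrates rose in part: Rad23b by 0.97 ± 0.21 and Ubqln1 by 0.96 ± 0.19 (adjusted p 0.0117 and 0.00836), whereas Ubqln2 and Ubqln4 had 0.46 and 0.24 and did not pass. Of the segregase Vcp and its cofactors, Nploc4 rose by 0.79 ± 0.16 and Ufd1 by 0.34 ± 0.10 (adjusted p 0.00940 and 0.0355), and Vcp itself had -0.01 ± 0.08. Txnl1, a thioredoxin bound to the cap, rose by 0.61 ± 0.14 (adjusted p 0.0151).

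Sem1, the smallest lid subunit, which the naming rule does not reach, fell. It had 31.3, 28.8, 22.9, 22.8 and 33.4 CPM in the Musashi IP of lysates 2, 3, 5, 6 and 7, against 51.9, 32.1, 34.1, 37.1 and 44.8 CPM in IgG. It was lower in the Musashi IP of each pair, with a small overlap between groups, and the log2 fold change was -0.52 ± 0.11 (edgeR adjusted p 0.0136). Leaving out lysate 5 ended the calls of Sem1 (adjusted p 0.0681), Rad23b (0.0583), Nploc4 (0.0514) and Txnl1 (0.0710), and Txnl1 also missed without lysate 7 (0.0540). Without the lysate block Sem1 missed at 0.0706, and Ufd1 was kept in 6 of 14 alternatives, missing without lysate 3, 5 or 7 (0.0826, 0.136 and 0.175).

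Proteasome mRNAs had short 3′ UTRs. The longest annotated 3′ UTR had a median of 294 nt over the 47 tested members and 1207.5 nt over all tested protein-coding genes, and 17.0% of members against 3.77% of protein-coding genes were under 100 nt. Of the 39 members with at least 100 nt, 18 (46.2%) held a Musashi motif, against 73.3% of the 13666 protein-coding genes with at least 100 nt. Counted per kb, motifs were about as dense in both, at 1.88 per kb in members and 1.98 per kb in protein-coding genes.

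**Figure D5:**
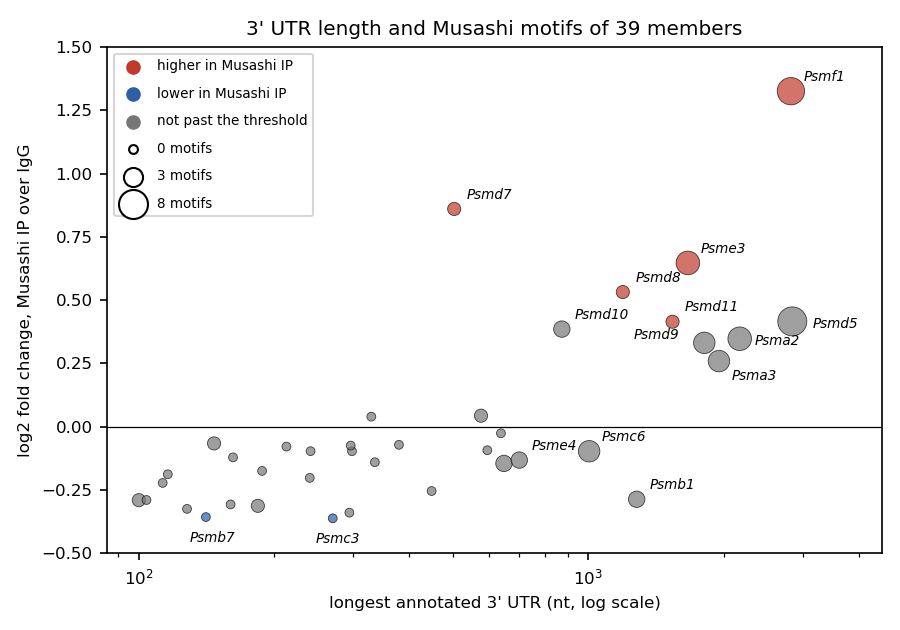
Longest annotated 3′ UTR (x axis, nt, log scale) against log2 fold change, Musashi IP over IgG (y axis), for the 39 tested members with a 3′ UTR of at least 100 nt; the size of a point is its number of Musashi motifs and its colour the call. The members that rose lie on the right, apart from Psmd7 at 503 nt, and Psmc6 and Psmb1 are long, hold motifs and lie below 0.

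Members without a motif and members with one differed in their values. Over the 21 members with no motif the log2 fold change ranged from -0.36 to 0.04 with a median of -0.17, and 0 were called higher. The 18 with at least 1 motif had a median of 0.30, from -0.31 to 1.33, and held all 5 that were called higher. Both members called lower, Psmb7 with 141 nt and Psmc3 with 270 nt, had no motif. Length moves with motif number: the 3′ UTR median was 241 nt in members without a motif and 1098.5 nt in members with at least 1, so motif and length cannot be told apart in these counts. Across the 39 members the Spearman correlation of log2 fold change was 0.71 with 3′ UTR length, 0.55 with motif count and 0.37 with motifs per kb. Over the 13666 protein-coding genes the same values were 0.40, 0.28 and 0.11. These are descriptions over genes that share libraries and are not independent, and without Psmf1 the members' value for length was 0.69.

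The members called higher were also counted within classes of 3′ UTR length, of which the longer ones hold few members. Among the 18 members of 100 to under 300 nt, 0 were called higher, against 1.89% of protein-coding genes of that length. In the next class, 300 to under 600 nt, 1 of 7 was called higher, against 8.88%. From 600 to under 1200 nt it was 1 of 6, against 21.96%, from 1200 to under 2400 nt 2 of 6, against 33.6%, and at 2400 nt or more 1 of 2, against 44.9%. If each member were called at the share of its class, 5.19 of the 39 would be higher, and 5 were. This is a description, and the part of length in the members' calls was not tested. The share with a motif also followed length, at 16.7% of members against 22% of protein-coding genes in the shortest class and 100% against 98.6% in the longest.

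Exceptions ran in both directions. Psmd7 rose with a 3′ UTR of 503 nt and 1 motif, which starts at position 18 of the UTR. Psmc6, with 1004 nt and 4 motifs, Psmb1, with 1281 nt and 2 motifs, and Psme4, with 702 nt and 2 motifs, had log2 fold changes of -0.10, -0.29 and -0.13. The most motif-rich member, Psmd5, held 8 motifs in 2842 nt at a log2 fold change of 0.42, while Psmf1, of nearly the same length, held 7 at 1.33. In the related list Nfe2l1 rose most with 1 motif in 1762 nt, Ufd1 rose with 0 motifs in 951 nt, and Sem1 fell with 5 motifs in 1155 nt. By letters, members with a 3′ UTR of at least 100 nt, leaving out the site of Psmg2, held AUAGU at 26 sites, GUAGU at 13, AUUAGU at 10 and GUUUAGU at 2.

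The Musashi IP effect on proteasome genes was not found to differ between females and males. The female minus male difference of the effect was called for 0 of 47 members with edgeR (adjusted p 1 for each), and 0 reached an unadjusted p under 0.05. Over all genes 0 were called too, with 187 at an unadjusted p under 0.05. The smallest unadjusted p was that of Psmf1, whose effect was larger in females by 0.46 ± 0.27 on the log2 scale. Psmf1 averaged 117 CPM in the female Musashi IP, against 81.8 CPM in the male Musashi IP, and 39.7 CPM in female IgG, against 39.2 CPM in male IgG. With 3 female and 2 male lysates, differences of this size could not be separated from the spread between lysates.

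Levels within each antibody group likewise gave no call between sexes. In IgG 0 of 47 members passed, against backgrounds of 2.66% higher and 1.84% lower in females over all genes, and 3 had an unadjusted p under 0.05, beside 3496 of all 20987 genes tested in IgG. These were Psmd8 (female over male log2 fold change 0.65 ± 0.26, edgeR adjusted p 0.232), Psmc3ip (0.64 ± 0.27) and Psmb9 (-0.76 ± 0.34). In the Musashi IP 0 passed, against 1.9% higher and 0.946% lower, and 4 had an unadjusted p under 0.05, beside 3505 of all 21238 genes tested there. These were Psmb9 (-1.02 ± 0.32, adjusted p 0.142), Psmb8 (-1.35 ± 0.44, adjusted p 0.153), Psme3 (0.51 ± 0.22) and Psme1 (-0.63 ± 0.28).

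The inducible subunits Psmb8 and Psmb9 were thus lower in females by their fitted values, and whether they passed depended on lysate 2 and on the low-count filter. Psmb8 averaged 3.93 CPM in the female and 9.96 CPM in the male Musashi IP, and 5.50 CPM in female and 8.97 CPM in male IgG. Without the female lysate 2, Psmb8 passed in both groups (Musashi IP -1.89 ± 0.40, edgeR adjusted p 0.0142; IgG -1.44 ± 0.30, adjusted p 0.0104), and Psmb9 passed in the Musashi IP (-1.29 ± 0.33, adjusted p 0.0372) and not in IgG (adjusted p 0.0683). With no low-count filter both passed in the Musashi IP (edgeR adjusted p 0.00441 for Psmb8 and 0.0356 for Psmb9). The shares of all genes that passed without lysate 2 or with no low-count filter are not given here. Summed immune cell markers were 145, 96.1 and 50.7 CPM in the Musashi IP of female lysates 2, 5 and 6. In the Musashi IP of male lysates 3 and 7 they were 216 and 129 CPM. In IgG the sums were 218, 125 and 64.4 CPM in the same female lysates, against 197 and 168 CPM in the male ones. Marker sums of the sexes thus overlapped in both antibody groups through female lysate 2, which had the highest sum in IgG. The part of immune cells in the Psmb8 and Psmb9 values was not tested, and between bulk lysates fewer cells of a type and less RNA per cell cannot be told apart.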

How the data were processed

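RNA from Musashi and IgG immunoprecipitates of mouse pituitary was prepared for sequencing with a TruSeq Stranded Total RNA kit (Gold), per the labels' protocols. The authors deposited 1 table of raw counts per Ensembl gene for the 10 libraries, with no normalization. FastQC 0.11.8, Trimmomatic 0.39, STAR 2.7.1a and the build GRCm39 are named in the submitters' processing notes, while no source used here gives the counting program, its strand setting, its annotation or its treatment of multi-mapping reads. Symbols, exon lengths and 3′ UTRs came from GENCODE M21 on GRCm38, an older build, matched by gene ID (52135 IDs, 94.1%). IDs with no match made up 0.726% to 4.03% of the counts per library and were kept in totals and tests.

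Counts were tested in R 4.3.3 with edgeR 4.0.16 (filterByExpr, TMM scaling, quasi-likelihood test) and Benjamini-Hochberg adjustment at 0.05 over 20550 genes. Musashi IP was compared with IgG with the lysate as a block; females and males were compared unpaired within each antibody group, and through the interaction with the lysate as a block. CPM are TMM-scaled, log2 ratios of single lysates used a prior count of 2, and the SE is the log2 fold change over the root of its F value. Alternatives used DESeq2 1.42.0, limma 3.58.1, other scalings, filters and gene sets, a length and GC correction, no block, and each lysate left out. In data simulated for the antibody comparison (20278 genes), the fit recovered 82.5% of 200 genes changed 2-fold up or down, with 8 false calls. The simulation held no lysate effect, and most members changed less than 2-fold, so that share does not give the recovery of such small changes.

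Lysate numbers pair the libraries, since the protocol divides every lysate between both antibodies. Deviations from the group means correlated within lysates 2, 3, 5, 6 and 7 at 0.523, 0.679, 0.602, 0.186 and 0.778; for lysate 6 the highest correlation with another lysate (0.415) was above its own. Lysates of a sex came from separate occasions per the labels, so the spread is between pools of mice. No molecular identifiers are described, so counts are not independent molecules. No libraries were identical (highest correlation 0.982).

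Members and gene lists were chosen with earlier results of these data known. Values per library were given for members past the threshold, for the constitutive and inducible catalytic subunits and for the member of each role nearest to 0; related genes past the threshold were named, with per-library values of Nfe2l1, Zfand2a and Sem1 added after they were seen. Motif matches, overlapping ones included, were counted in the longest 3′ UTR of a protein-coding transcript. The values of 1 gene of the related list are not reported here.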

Additional observations from a re-analysis of the deposited data

Results flagged for a closer look

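Among 94 sets of 5 libraries (47 members in each antibody group), 21 had a library set apart from the other 4 by a gap that is large against the whole range. Chance marks about 5% of such sets, and the libraries are shared between genes, so the 21 are not independent. Lysate 2 accounts for 9 of them in the Musashi IP and 9 in IgG, always as the highest library. In the Musashi IP, lysate 2 had 24.6 CPM for Psma6, 50.5 for Psmb4, 8.85 for Psmb5, 39.7 for Psmb6, 40.3 for Psmc5, 38.6 for Psmd13, 99.0 for Psmd2, 53.9 for Psmd4 and 33.4 for Psme2. In IgG, lysate 2 had 33.3 CPM for Psma4, 62.8 for Psmb4, 9.84 for Psmb5, 33.4 for Psmb6, 35.4 for Psmc5, 48.8 for Psmd12, 126 for Psmd2, 49.0 for Psmd7 and 51.4 for Psmd8. Psmb4, Psmb5, Psmb6, Psmc5 and Psmd2 stood out in both libraries of lysate 2, and Psmd7 and Psmd8 in the IgG library alone.

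The other 3 were low values. Psmc3ip had 8.71 CPM in the Musashi IP of lysate 7, against 14.5 to 16.2 CPM in the other Musashi IP libraries. Psmd11 had 55.2 CPM in the IgG of lysate 6, against 64.9 to 68.4 CPM in the other IgG libraries, and Psmd9 had 20.1 CPM in the IgG of lysate 7, against 26.8 to 28.8 CPM. The cause of these values was not tested.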

How the results depend on the processing

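Psmf1, Psmd7 and Psme3 kept their calls in each of the 14 alternatives, with log2 fold changes of 1.09 to 1.399, 0.68 to 1.07 and 0.46 to 0.75. The number of members higher was 5 (25.7% of protein-coding genes were higher), 5 with limma (26.1%) and 3 with no lysate block (16.5%). It was 4 with DESeq2 size factors (23.8%), library totals (21.5%), the DESeq2 test (23.9%), a 2 CPM filter (24.7%) and protein-coding genes only (24.5%). With no low-count filter it was 6 (21.6%), and 6 with the length and GC correction (21.4%). Leaving out a lysate gave 3 to 8 (11.4% to 31.5%). Members lower numbered 2 (4.01% of protein-coding genes were lower), against 15 with library totals (14.5%), 1 with DESeq2 (3.2%), 0 with no low-count filter (1.92%), 8 with a 2 CPM filter (11.1%), 9 with protein-coding genes only (9.13%), 8 with the length and GC correction (16%) and 0 with no lysate block (0.331%); leaving out a lysate gave 0 to 5 (0.147% to 6.02%). The members' median was -0.10, against -0.27 with library totals, -0.19 with the 2 CPM filter and -0.20 with protein-coding genes only, and -0.23 to -0.0045 without a lysate. These settings moved protein-coding genes too: their median was -0.09 with library totals, 0.00021 with the 2 CPM filter and -0.01 with protein-coding genes only. The block for the pairing of libraries changed no call of the female minus male difference, which stayed at 0. Between sexes, members lower in females were 0 in IgG, beside 1.84% of all genes, and 0 in the Musashi IP, beside 0.946%. Without lysate 2 they were 1 in IgG and 2 in the Musashi IP, and without lysate 5 or 6 they were 0 in both. With no low-count filter they were 0 in IgG and 2 in the Musashi IP. The shares of all genes called in these other settings are not given here, so the counts cannot be set against them. Of 1118 values for single genes, 1018 kept their side of the threshold, 40 lost a call, 60 gained a call and 0 called values changed sign, while 61 values uncalled in both settings did. The cause was not tested.

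Depth limits the scarce members: Psma8, Psmb11 and Psme2b were at or near 0 counts, where no difference was detectable. Levels of members with pseudogenes or opposite-strand neighbours depend on counting choices that are not known here.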
